A study of Mus musculus with 6 samples.

Results

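The genes described here are ATF4 and 9 of its stress-effector targets, namely ATF3, DDIT3, CEBPB, TRIB3, PPP1R15A, SESN2, DDIT4, CHAC1 and GDF15. They were taken by symbol from a count table of 39234 genes, and enzymes of amino acid synthesis were not included. All 10 were in the table under human Ensembl identifiers, and all 10 passed the filter on low counts, as did 18188 genes in all.

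The integrated stress response works through phosphorylation of the translation factor eIF2 by a small family of kinases that sense endoplasmic reticulum stress, amino acid shortage, double-stranded RNA or heme and mitochondrial stress. Phosphorylated eIF2 slows general protein synthesis while translation of the ATF4 mRNA increases, so the amount of ATF4 protein is set largely at translation and its mRNA is an incomplete readout. ATF4 protein then activates transcription of further transcription factors, of feedback regulators that restore translation, of brakes on growth, and of a secreted hormone. In tubular cells of the kidney these genes are known as markers of cellular stress and injury.

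RNA was sequenced from 3 control cultures of HK-2 cells and from 3 cultures of HK-2 cells that overexpressed USAG-1, the secreted BMP and Wnt antagonist encoded by SOSTDC1. HK-2 is a proximal tubule epithelial line of human origin, immortalized with papillomavirus E6 and E7, and per the study's methods the overexpression was by transient transfection of plasmids, and the labels name no hypoxia. The labels call all 6 samples WT in genotype and do not say what the control cells were transfected with or whether each library came from a separate transfection, so p-values measure the spread between these libraries. The labels also name mouse as the organism, whereas the identifiers and the genome build in the processing notes (hg38) are human.

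Library totals lay between 41236194 and 48699471 counts. SOSTDC1 rose from 1.64 ± 0.243 to 100.9 ± 10.6 CPM (counts scaled by TMM to a common library size; SD, n = 3 each). Of 17 kidney epithelial markers, 12 were tested, with VIM, KRT8 and PAX8 among the expressed ones, while LRP2 (megalin), a defining receptor of the proximal tubule, had no count in any library. PAX8, GGT1 and CDH2 were called higher, but the number called was 2 without control replicate 1, 1 without control replicate 2 and 8 without control replicate 3, and leaving out USAG-1 overexpression replicates 1, 2 and 3 in turn gave 0, 1 and 0. Control replicate 3 stood apart from control replicates 1 and 2 on the second principal component (-54.3 against 28.2 and 25.2), so counts of calls for the 10 genes and the pathway lists are also given without it. Mitochondrially encoded genes held 4.803% to 5.59% of counts in control libraries and 1.504% to 1.55% in libraries with USAG-1 overexpression. The summed level of 18 T and NK cell markers was 134.9 to 151.9 CPM in control libraries and 34.9 to 46.4 CPM with USAG-1 overexpression, and 17 of the 18 fell, for example GZMB (log2 fold change -4.31, SE 0.25) and LCK (-2.51, SE 0.17). Of 10 myeloid markers ITGAM and LYZ fell (LYZ not without control replicate 1, -0.44, or USAG-1 overexpression replicate 1, -0.78, 2, -0.65, or 3, -0.78), with summed ranges of 53.3 to 113.5 CPM and 42.1 to 74.9 CPM. No B cell marker of 6 (MS4A1 and JCHAIN had the smallest p) and no platelet or erythroid marker of 5 (PPBP and HBA1) passed the threshold in edgeR, DESeq2 or limma-voom, and 0 had an unadjusted p under 0.05 in edgeR. With mitochondrially encoded genes left out of the scaling 7 of the 10 genes were called, and with blood cell marker genes left out 6 were. With all genes kept 6 were called. Any other part of these shifts in the results below was not tested.

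In HK-2 cells with USAG-1 overexpression, 6 of the 10 genes rose and none fell. The rises were near 2-fold in GDF15, CHAC1 and ATF3, smaller in TRIB3 and DDIT3, and smallest in ATF4 itself. SESN2 missed the threshold narrowly, and DDIT4, PPP1R15A and CEBPB had fitted changes close to 0. The threshold for a change was 0.05 on the p that edgeR gave after adjustment over all 18188 genes. By this rule 15.9% of all genes tested were called, 8.95% as higher and 6.91% as lower. The median log2 fold change was 0.46 over the 10 genes and -0.02 over all genes tested. All 10 fitted changes were above 0, and in 7 of the 10 every library with USAG-1 overexpression lay above every control library, an arrangement found in 19.4% of all genes tested. The number of the 10 called was 8 without control replicate 3, a fit that called 5091 of the 18866 genes tested. It fell to 3 (ATF3, TRIB3 and GDF15) when USAG-1 overexpression replicate 2 was left out, a fit that called 1137 of 19008 genes. With every library kept, 2884 of 18188 were called. Over all genes, 1917 and 1636 were called without control replicates 1 and 2, and 1306 and 1347 without USAG-1 overexpression replicates 1 and 3. The counts given below for the lists with a library left out come from these same fits. In bulk RNA, a change in RNA per cell and a change in the number of expressing cells cannot be told apart.

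**Figure D1:**
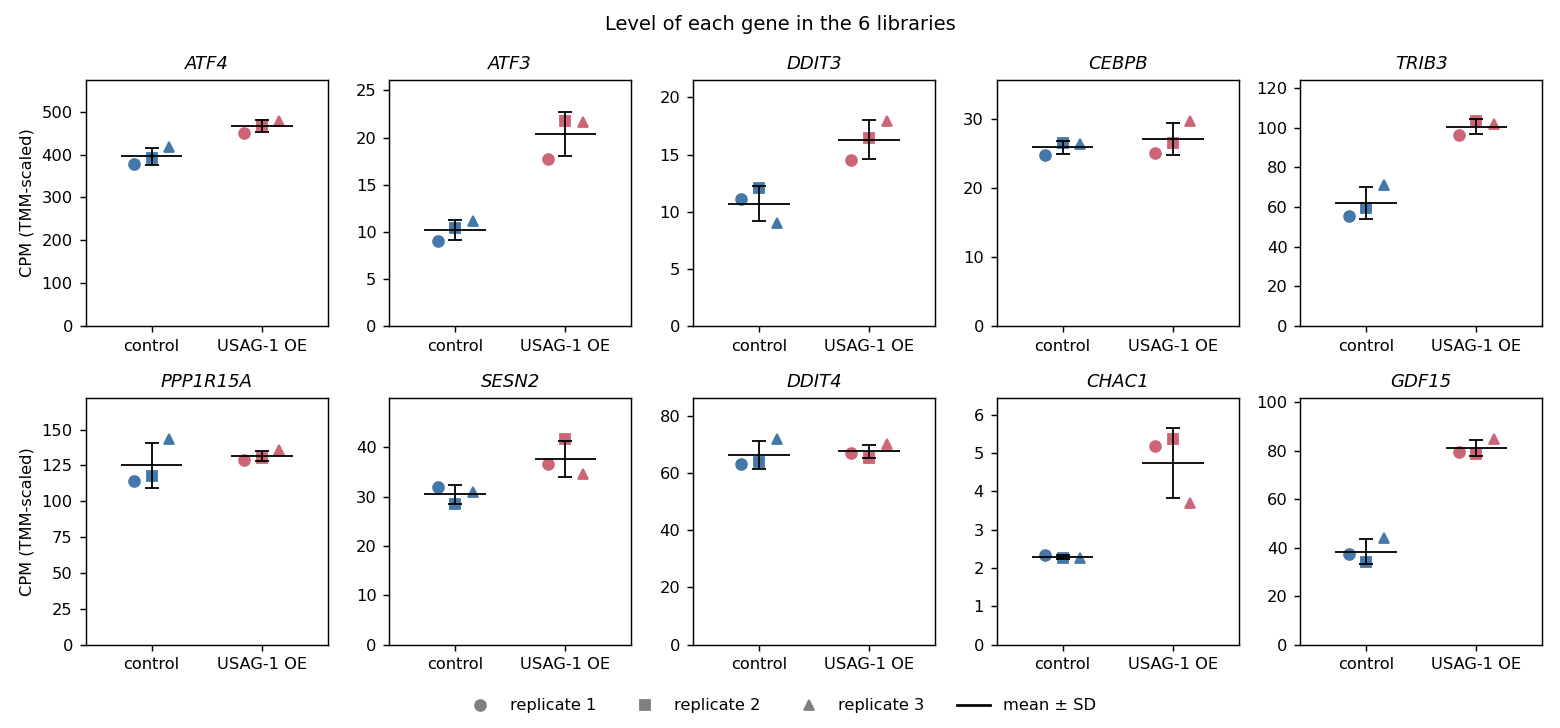
Level of each of the 10 genes (y axis, CPM scaled by TMM, each axis from 0) in the 3 control libraries (blue) and the 3 libraries with USAG-1 overexpression (USAG-1 OE, red), with marker shapes for replicate numbers and a black line with bars for the mean ± SD. GDF15, CHAC1, ATF3, TRIB3, DDIT3, ATF4 and SESN2 show no overlap between groups, whereas CEBPB, PPP1R15A and DDIT4 do.

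The transcription factors came first in the pathway, and 3 of these 4 genes rose. ATF4 (ENSG00000128272; chromosome 22, 39519695 to 39522683, plus strand) is the factor on which the response converges. Its level was 378.8, 392.1 and 418.4 CPM in control replicates 1 to 3 and 451.4, 468.9 and 479.0 CPM in USAG-1 overexpression replicates 1 to 3. The groups did not overlap, yet the gap between the highest control library and the lowest USAG-1 library was similar in size to the range within the controls. The log2 fold change was 0.23 (SE 0.06, 95% interval 0.10 to 0.37, adjusted p = 0.0296 by edgeR), that is, 1.177-fold. With any 1 library left out the fitted change stayed between 0.20 and 0.28, but the call did not hold in most of these fits. It was lost without control replicate 1 (log2 fold change 0.20) or 2 (0.23), without USAG-1 overexpression replicate 1 (0.26), 2 (0.23) or 3 (0.22), and when no filter on low counts was used (0.23), with adjusted p between 0.000726 and 0.123 across 17 alternative fits. The table lists 4 processed pseudogenes of ATF4, whose counts together came to at most 0.521% of those of ATF4 in a library.

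ATF3 (ENSG00000162772; chromosome 1, 212565334 to 212620772) encodes a stress-induced repressor and activator of the same basic leucine zipper class. Control replicates 1 to 3 had 8.98, 10.4 and 11.1 CPM, and USAG-1 overexpression replicates 1 to 3 had 17.7, 21.8 and 21.7 CPM. Every USAG-1 library was thus well above every control library, with replicate 1 the lowest of the 3. ATF3 rose by 1.01 on the log2 scale (SE 0.12, 95% interval 0.72 to 1.29, edgeR adjusted p = 0.00195), a 2.01-fold rise that ranked 290th of the genes tested by size. It passed the threshold in all 17 alternative fits, between 0.93 and 1.10.

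DDIT3 (ENSG00000175197; chromosome 12, 57516588 to 57521737, minus strand) encodes CHOP, which promotes cell death when stress is not resolved. It was measured at 11.1, 12.04 and 9.03 CPM in control replicates 1 to 3 and at 14.5, 16.5 and 18.0 CPM in USAG-1 overexpression replicates 1 to 3. The groups did not overlap, and control replicate 3 was the lowest of all. DDIT3 rose by 0.61 on the log2 scale (SE 0.14, 95% interval 0.29 to 0.92, edgeR adjusted p = 0.0213), and it was 0.50 without control replicate 3. The call was lost without USAG-1 overexpression replicate 2 (0.60) or replicate 3 (0.53), with adjusted p from 0.00139 to 0.0900 across the alternatives.

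DDIT3 is also the only gene of the 10 whose position overlaps well expressed genes. On the opposite strand, MARS1 shares 982 bases with it and MBD6 shares 1028 bases. The labels describe a strand-specific protocol, but whether strand was used in counting is not given in the sources used here, so reads in these stretches could be assigned to either gene. MBD6, chosen after its values were seen, had 57.5, 51.5 and 37.3 CPM in control replicates 1 to 3 and 81.8, 69.0 and 69.8 CPM in USAG-1 overexpression replicates 1 to 3. It rose too, by 0.59 on the log2 scale (edgeR adjusted p = 0.0325, from 0.000330 to 0.123 in the alternatives), and like DDIT3 it was lowest in control replicate 3. Its call was lost without control replicate 2 (0.63), without USAG-1 overexpression replicate 1 (0.51), 2 (0.64) or 3 (0.63), and with no filter on low counts (0.59). Within the USAG-1 libraries, replicate 1 was the highest for MBD6 and the lowest for DDIT3, while replicate 3 was above replicate 2 for both genes. MARS1, at 233.6 to 264.7 CPM over the 6 libraries, had a log2 fold change of -0.07 (edgeR adjusted p = 0.450). How many reads DDIT3 shares with MBD6 was not tested.

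**Figure D2:**
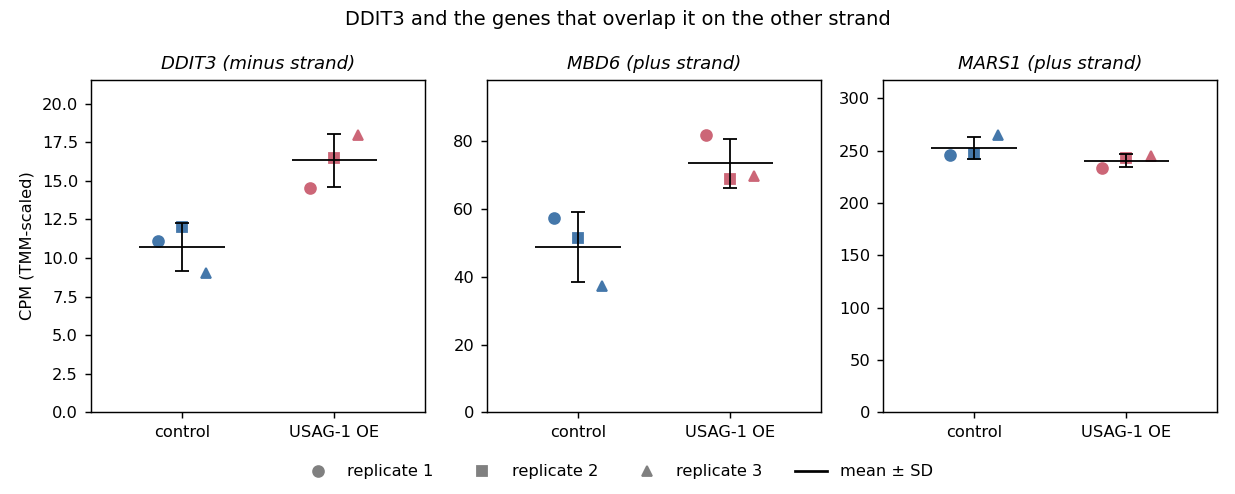
Level (y axis, CPM scaled by TMM, from 0) of DDIT3 and of MBD6 and MARS1, which overlap it on the other strand, in control libraries (blue) and libraries with USAG-1 overexpression (USAG-1 OE, red), with the mean ± SD in black. DDIT3 and MBD6 are both lowest in control replicate 3, and USAG-1 overexpression replicate 1 is highest for MBD6 and lowest for DDIT3.

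CEBPB (ENSG00000172216; chromosome 20, 50190830 to 50192668) encodes a partner with which ATF4 can dimerize, and it was the transcription factor that did not pass the test. It had 24.7, 26.5 and 26.4 CPM in control replicates 1 to 3 and 25.1, 26.4 and 29.7 CPM in USAG-1 overexpression replicates 1 to 3. The groups overlapped. The log2 fold change was 0.07 with a 95% interval from -0.13 to 0.26 (edgeR adjusted p = 0.652), so a rise as large as that fitted for ATF3 lay outside the interval.

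The feedback regulators differed in outcome, with TRIB3 higher and PPP1R15A not past the threshold. TRIB3 (ENSG00000101255; chromosome 20, 362835 to 397559) encodes a pseudokinase that is induced by ATF4 and CHOP and restrains both ATF4 and AKT signalling. Its level was 55.7, 59.5 and 70.9 CPM in control replicates 1 to 3, against 96.2, 103.5 and 102.0 CPM in USAG-1 overexpression replicates 1 to 3. The lowest USAG-1 library was clearly above the highest control library. TRIB3 rose by 0.70 on the log2 scale (SE 0.09, 95% interval 0.48 to 0.91, edgeR adjusted p = 0.00257), and it passed the threshold in all 17 alternative fits, with 0.81 without control replicate 3 as the largest value.

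PPP1R15A (ENSG00000087074; chromosome 19, 48872421 to 48876058) encodes GADD34, the inducible subunit that directs a phosphatase to eIF2 and so ends the response. It was at 114.1, 117.7 and 143.2 CPM in control replicates 1 to 3 and at 128.8, 130.4 and 135.6 CPM in USAG-1 overexpression replicates 1 to 3. All USAG-1 libraries lay inside the control range because control replicate 3 was the highest of the 6. The log2 fold change was 0.07 (95% interval -0.13 to 0.28, edgeR adjusted p = 0.630). Without control replicate 3 it was 0.19 and passed the threshold (edgeR adjusted p = 0.0107, where the other alternatives ranged up to 0.946), so the call for PPP1R15A depended on that library. PPP1R15B, the constitutive subunit with the same function, rose by 0.24 on the log2 scale (SE 0.05, edgeR adjusted p = 0.0147), with 166.3 to 168.9 CPM in controls and 196.6 to 198.8 CPM with USAG-1 overexpression. That call was lost without control replicate 2 (0.23) or when USAG-1 overexpression replicate 1 (0.25), 2 (0.24) or 3 (0.24) was left out.

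Of the 3 metabolic effectors, CHAC1 alone passed the threshold. CHAC1 (ENSG00000128965; chromosome 15, 40952962 to 40956512) encodes a gamma-glutamylcyclotransferase that degrades glutathione, the cofactor that GPX4 uses against lipid peroxides. It was the gene with the fewest reads of the 10, with 98, 112 and 96 counts in control replicates 1 to 3 and 238, 234 and 159 counts in USAG-1 overexpression replicates 1 to 3. On the CPM scale these were 2.35, 2.27 and 2.25 against 5.18, 5.36 and 3.68. The 3 controls were nearly alike, whereas USAG-1 overexpression replicate 3 was well below replicates 1 and 2, and the SD came to 2.23% of the mean in controls and 19.4% with USAG-1 overexpression. CHAC1 rose by 1.05 on the log2 scale (SE 0.19, 95% interval 0.61 to 1.49, edgeR adjusted p = 0.00922). Leaving out USAG-1 overexpression replicate 2 gave 0.96 and took the gene just short of the threshold (edgeR adjusted p = 0.0506, where the other alternatives lay between 0.000524 and 0.0466).

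SESN2 (ENSG00000130766; chromosome 1, 28259518 to 28282491) encodes Sestrin 2, a leucine sensor that holds mTORC1 in check and limits oxidative damage. It had 32.0, 28.4 and 30.9 CPM in control replicates 1 to 3 and 36.5, 41.6 and 34.6 CPM in USAG-1 overexpression replicates 1 to 3. The groups did not overlap, and as for CHAC1, USAG-1 overexpression replicate 2 was the highest library and replicate 3 the lowest of its group. Its log2 fold change was 0.31 (SE 0.09, 95% interval 0.10 to 0.51, edgeR adjusted p = 0.0509), just short of the threshold. It was past the threshold in 6 of the 17 alternatives, DESeq2 (0.31) and the fit without control replicate 3 (0.32) among them, with adjusted p from 0.0245 to 0.191 over all 17.

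DDIT4 (ENSG00000168209; chromosome 10, 72273919 to 72276036) encodes REDD1, which also restrains mTORC1 and responds to hypoxia and glucocorticoids besides ATF4. Control replicates 1 to 3 had 63.3, 64.0 and 72.0 CPM, and USAG-1 overexpression replicates 1 to 3 had 67.3, 65.6 and 70.3 CPM. The USAG-1 libraries fell inside the control range. Its log2 fold change was 0.03 with a 95% interval from -0.13 to 0.19 (edgeR adjusted p = 0.831). The value fitted for ATF4, 0.23, lay above this interval, but the interval of ATF4 (0.10 to 0.37) overlapped it. DDIT4 and ATF4 were not tested against each other.

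GDF15 (ENSG00000130513; chromosome 19, 18374731 to 18389176) encodes a secreted hormone of the TGF-beta superfamily that signals cellular stress to the brain stem and is used as a serum marker of tissue and mitochondrial stress. Control replicates 1 to 3 had 37.2, 33.9 and 43.9 CPM, while USAG-1 overexpression replicates 1 to 3 had 79.4, 78.6 and 84.7 CPM. Every USAG-1 library was above the highest control library by a margin larger than the range within either group. GDF15 rose by 1.08 on the log2 scale (SE 0.10, 95% interval 0.86 to 1.30, edgeR adjusted p = 0.000567), or 2.11-fold. By p it ranked 100th of the 18188 genes tested, ahead of the other 9 genes, and it passed the threshold in all 17 alternative fits, between 1.00 and 1.19.

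**Figure D3:**
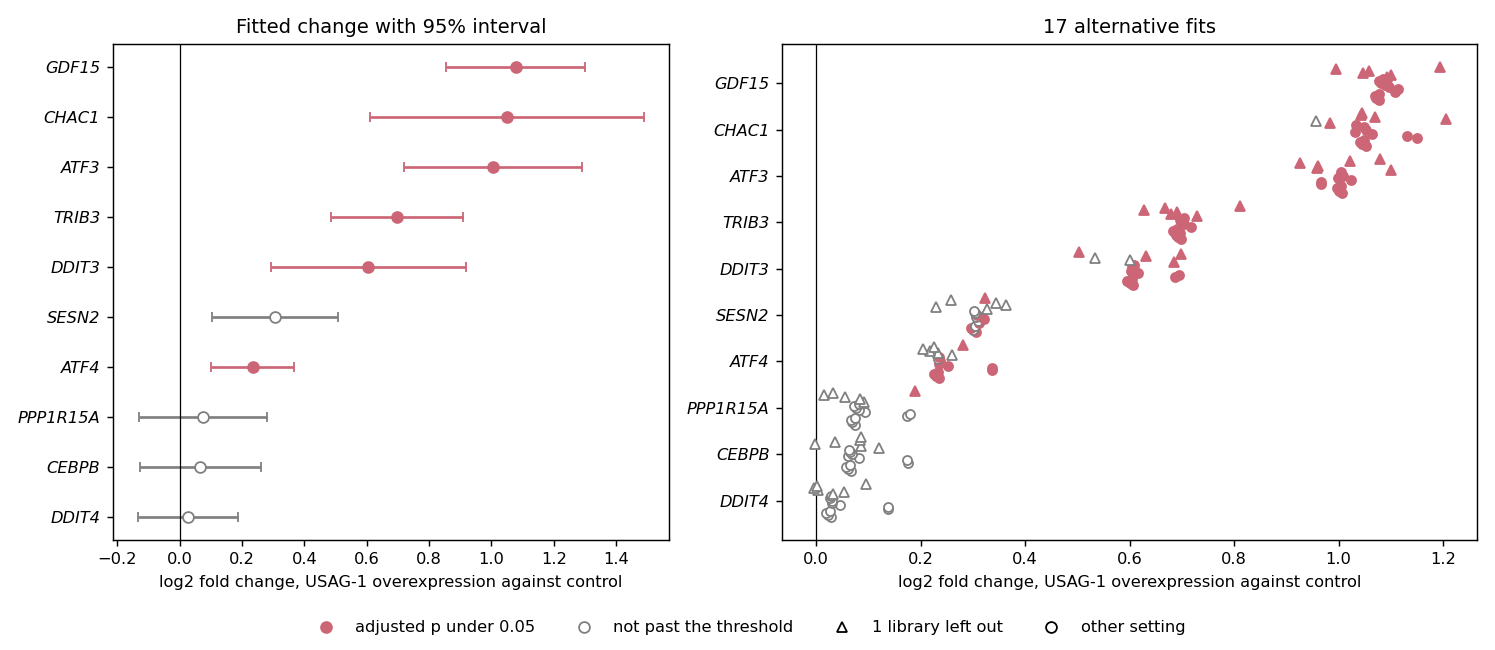
Log2 fold change of each of the 10 genes for USAG-1 overexpression against control (x axis), with its 95% interval (left) and in 17 alternative fits (right), where filled red marks an adjusted p under 0.05, open grey marks values not past the threshold, and triangles mark fits with 1 library left out. ATF3, TRIB3 and GDF15 are filled in every fit, whereas the filled and open symbols of ATF4 and SESN2 are mixed.

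The genes also varied among themselves within a group. Among control libraries, replicate 3 was the highest for 6 of the 10 genes (ATF4, ATF3, TRIB3, DDIT4, PPP1R15A and GDF15) and the lowest for DDIT3 and CHAC1. Among libraries with USAG-1 overexpression, replicate 1 was the lowest for 6 of the 10, including all 4 transcription factors, and the highest for none. Over all genes tested replicate 1 was the lowest of the 3 in 32.5%. The same library was the lowest for 15 of 16 immediate-early genes tested. By its known induction ATF3 belongs to the immediate-early genes as well. That library was also the lowest for 9 of 12 kidney epithelial markers, 5 of 8 glucocorticoid targets and 10 of 20 amino acid supply genes. For p53 targets it was the lowest in 7 of 20 and for mTORC1 inhibitors in 3 of 11. The source of this order was not tested.

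The spread between libraries, as SD over mean, ran from 2.23% (CHAC1) to 14.4% (DDIT3) in controls and from 2.69% (PPP1R15A) to 19.4% (CHAC1) with USAG-1 overexpression. Levels were not compared between genes, since the table gives no transcript lengths.

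Upstream of ATF4, a list of 18 genes of the eIF2 kinases, the eIF2 and eIF2B subunits and their regulators was read from the same fit. All 18 were tested, and 3 rose while 1 fell. Their median was 0.07. Besides PPP1R15B, EIF2S2 (the beta subunit of eIF2) rose by 0.36 on the log2 scale (SE 0.06, edgeR adjusted p = 0.00516), and EIF2AK4 (GCN2, the kinase that senses amino acid shortage) rose by 0.31 (SE 0.07). DELE1, which relays mitochondrial stress to the kinase HRI, was the gene that fell, by 0.26 on the log2 scale (SE 0.06). EIF2AK3 (PERK, the kinase of the endoplasmic reticulum) had a log2 fold change of 0.04 (SE 0.08, edgeR adjusted p = 0.768). EIF2S2 kept its call with any library left out, whereas EIF2AK4 lost it without control replicate 2 (0.27) or USAG-1 overexpression replicate 1 (0.31), 2 (0.29) or 3 (0.33), and DELE1 kept it only without control replicate 3 (-0.25) among these fits. The list had 7 genes higher and 1 lower without control replicate 3, 3 higher without control replicate 1, and 1 higher in each of the other 4 fits that left out a library.

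Among 12 tested close relatives of the 10 genes, 3 rose and none fell. The 3 were JDP2, ATF5 and PPP1R15B, and PPP1R15B was already counted in the list upstream of ATF4. JDP2, a basic leucine zipper repressor related to ATF3, had 4.56 ± 0.523 CPM in controls and 8.07 ± 0.291 CPM with USAG-1 overexpression (SD, n = 3 each), which gave 0.82 on the log2 scale (SE 0.14, edgeR adjusted p = 0.00679). ATF5, the closest relative of ATF4, rose by 0.31 on the log2 scale (SE 0.06). JDP2 kept its call with any library left out, while the call for ATF5 was lost in 5 of these 6 fits (0.29 to 0.33), the exception being the fit without control replicate 3. Without control replicate 3 the list had 3 genes higher and 1 lower, without control replicate 1 it had 2 higher, and in each of the other 4 such fits it had 1 higher. The relatives of the metabolic effectors, CHAC2 (0.13, SE 0.13), SESN1 (-0.05, SE 0.15), SESN3 (-0.43, SE 0.49) and DDIT4L (-0.05, SE 0.31), were not past the threshold in any fit.

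Other genes that are known as ATF4 or CHOP targets moved in both directions. Of 17 stress effectors tested besides the 10 genes, 6 rose and 2 fell, with a median of 0.10. This list shares JDP2, ATF5 and CEBPG with the close relatives above, and JDP2 and ATF5 are among the 6 that rose. KLHL24 rose by 0.97 on the log2 scale (SE 0.11, edgeR adjusted p = 0.00151) and the ER-phagy receptor CCPG1 by 0.56 (SE 0.10). The oxidase ERO1A (-0.27, SE 0.06) and the angiogenic factor VEGFA (-0.37, SE 0.10) were the genes that fell. With 1 library left out, KLHL24 kept its call in every fit, and CCPG1 lost it without USAG-1 overexpression replicate 1 (0.52). ERO1A lost its call without control replicate 2 (-0.23) or when USAG-1 overexpression replicate 1 (-0.26), 2 (-0.30) or 3 (-0.24) was left out, and VEGFA in every such fit but that without control replicate 3. The count of called genes ran from 2 (without USAG-1 overexpression replicate 1) to 10 (without control replicate 3).

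Among 13 genes of cytosolic tRNA charging and export, 5 rose and none fell, with NARS1 (0.54, SE 0.06) and AARS1 (0.56, SE 0.08) named for the smallest p. Both kept their call with any library left out, and the number called ran from 3 (without USAG-1 overexpression replicate 1 or 2) to 9 (without control replicate 3).

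The 20 ATF4 targets of amino acid supply, all tested, split into 3 that rose and 4 that fell, with a median of -0.0014. SLC7A11, which imports cystine, rose by 1.29 on the log2 scale (SE 0.11, edgeR adjusted p = 0.000436), and the glutamine transporter SLC38A2 by 0.46 (SE 0.06). PHGDH (-0.51, SE 0.08), which opens serine synthesis, and ASNS (-0.44, SE 0.12), the asparagine synthetase often used as an ATF4 reporter, were lower. The enzymes of serine synthesis did not move together. PSPH rose by 0.49 on the log2 scale (SE 0.11, edgeR adjusted p = 0.0232). PSAT1 had a value of 0.24 (SE 0.07), just short of the threshold (edgeR adjusted p = 0.0525). ASNS had 24.8, 29.3 and 28.9 CPM in control replicates 1 to 3 and 22.6, 17.4 and 21.1 CPM in USAG-1 overexpression replicates 1 to 3, with no overlap. The direction in ASNS was thus opposite to that in ATF4, TRIB3 and CHAC1 in the same libraries. SLC7A11, SLC38A2 and PHGDH kept their calls with any library left out. ASNS lost its call without control replicate 2 (-0.40) or when USAG-1 overexpression replicate 1 (-0.52), 2 (-0.34) or 3 (-0.47) was left out. The list had 7 genes higher and 5 lower without control replicate 3, and 2 higher and 1 lower without USAG-1 overexpression replicate 3.

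**Figure D4:**
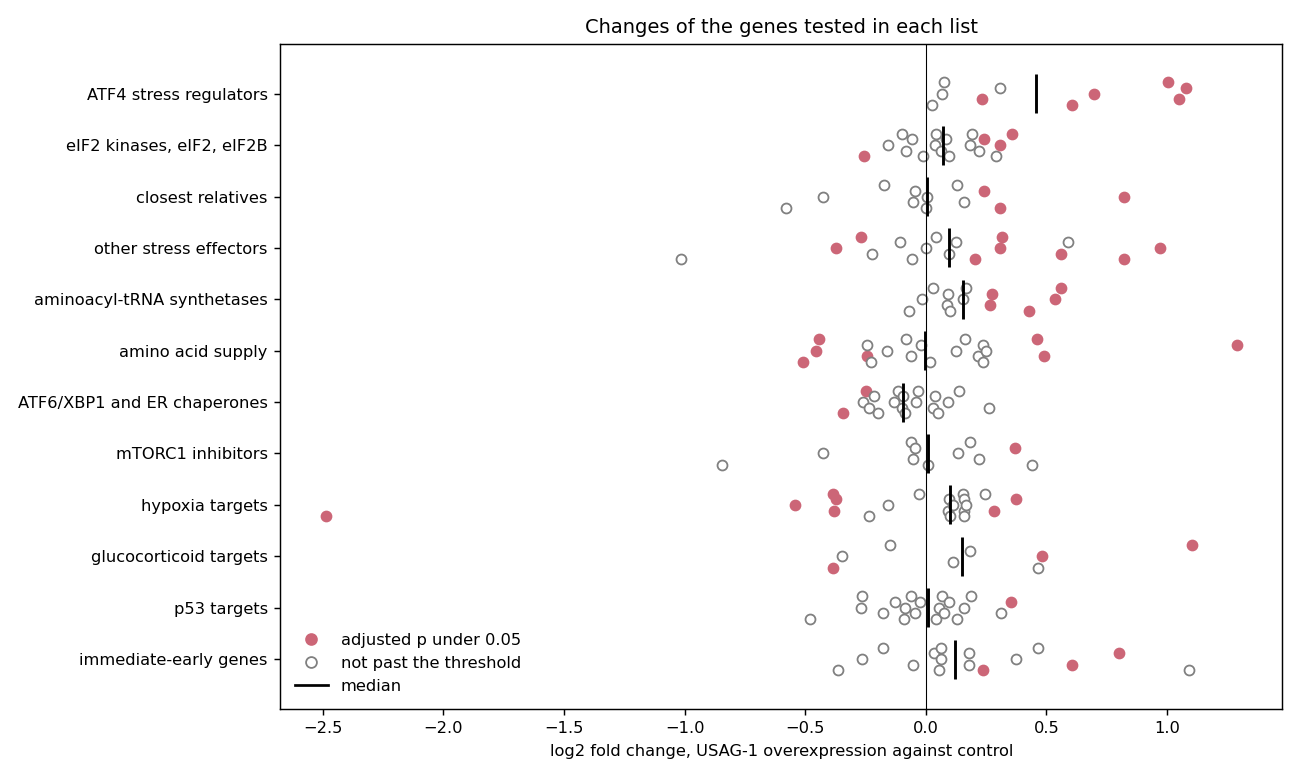
Log2 fold change for USAG-1 overexpression against control (x axis) of each gene tested in 12 lists (rows), with filled red for an adjusted p under 0.05, open grey for the rest and a black line at the median of the list. The 10 stress regulators have a median of 0.46, and the amino acid supply row has filled points on both sides of 0.

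The branches of the unfolded protein response that do not run through ATF4 were read for comparison. Of 19 genes of the ATF6 and XBP1 branches and of endoplasmic reticulum chaperones, none rose and 2 fell, namely MANF (-0.34, SE 0.06) and DNAJB11 (-0.25, SE 0.05), with a median of -0.10. HSPA5 (BiP), the main chaperone of the endoplasmic reticulum, had 1197.9, 1122.7 and 1186.6 CPM in control replicates 1 to 3 and 1180.3, 1247.7 and 1203.2 CPM in USAG-1 overexpression replicates 1 to 3. The groups overlapped, and the log2 fold change was 0.05 (95% interval -0.07 to 0.17, edgeR adjusted p = 0.564). MANF lost its call without USAG-1 overexpression replicate 1 (-0.33) or 2 (-0.33), and DNAJB11 without control replicate 1 (-0.23) or USAG-1 overexpression replicate 1 (-0.25), 2 (-0.25) or 3 (-0.24). Without control replicate 3 the list had 1 gene higher and 4 lower.

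Several of the 10 genes are also induced by signals other than ATF4, and the targets of those signals were counted in the same way. Of 20 hypoxia targets tested, 2 rose and 5 fell, among them CA9 (-2.49, SE 0.33) and NDRG1 (-0.54, SE 0.07). When any 1 USAG-1 overexpression library was left out, the hypoxia list had 0 genes higher and 2 lower. It had 1 higher and 3 lower without control replicate 1, 1 and 4 without control replicate 2, and 4 and 6 without control replicate 3. Of 8 glucocorticoid targets, PER1 (1.10, SE 0.09) and ERRFI1 (0.48, SE 0.06) rose while SGK1 fell (-0.38, SE 0.05). Of 20 p53 targets tested, CCNG1 (0.35, SE 0.08) was the gene that rose and none fell. FDXR, the next by p, had a log2 fold change of -0.48 (SE 0.15, edgeR adjusted p = 0.0732). GDF15 and SESN2 are known p53 targets too, and whether p53 has a part in their values was not tested.

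Of 16 immediate-early genes, 3 rose and none fell. They were JUN (0.60, SE 0.06), a dimer partner of ATF3, together with EGR1 (0.80, SE 0.13) and IER3. Of 11 inhibitors of mTORC1 besides SESN2 and DDIT4, AKT1S1 rose (0.37, SE 0.09), and DEPTOR had a value of 0.44 (SE 0.16, edgeR adjusted p = 0.1005). SESN1, one of the close relatives above, is also in this list. JUN, EGR1, PER1, ERRFI1, SGK1, CA9 and NDRG1 kept their calls with any library left out. IER3 (0.21 to 0.24) and AKT1S1 (0.31 to 0.38) lost theirs in every such fit but that without control replicate 3, and CCNG1 lost its call without control replicate 1 (0.35) or USAG-1 overexpression replicate 1 (0.35), 2 (0.36) or 3 (0.36). Without control replicate 3 the counts of higher and lower genes were 4 and 2 for glucocorticoids, 2 and 1 for p53, 6 and 0 for immediate-early genes, and 2 and 0 for mTORC1 inhibitors. With any other library left out they were 2 and 1 for glucocorticoids, 2 and 0 for immediate-early genes, 0 and 0 for mTORC1 inhibitors, and 0 and 0 for p53 except without control replicate 2 (1 and 0).

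For each of the 10 genes, the gene with the most similar profile was sought by Pearson's correlation of log2 CPM over the 6 libraries, among 11100 genes (11101 for CHAC1) with at least 5 CPM on average. With 6 libraries in 2 groups such coefficients are high for many genes, and 396 genes had r above 0.95 with ATF4. The 3 closest to ATF4 were LSS (r = 0.999), BCAR3 (0.999) and RDH11 (0.998). The closest to the others were GRN for ATF3 (r = 0.998), FRMD5 for DDIT3 (0.994), CDK20 for CEBPB (0.967), EPN1 for TRIB3 (0.999), CCDC124 for PPP1R15A (0.996), BACE1 for SESN2 (0.992), ZNF70 for DDIT4 (0.995), CLIC4 for CHAC1 (0.995) and PPP6R1 for GDF15 (1.00). None of these closest genes was another of the 10. CHAC1, with means of 2.29 CPM in controls and 4.74 CPM with USAG-1 overexpression, was under the floor and could not be chosen. As many as 647 genes had r above 0.95 (with GDF15), so the closest gene alone cannot tell whether the 10 vary together.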

How the data were processed

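The sources describe the libraries in conflicting ways. The sample labels give oligo(dT) selection, strand marking by dUTP and reads of 150 bases from both ends, whereas the series' design text gives removal of rRNA and another sequencer, and which applies was not settled. The authors deposited whole-number counts per gene for 6 libraries, not normalized, under a name that speaks of FPKM. The processing notes name cutadapt 1.9, FastQC and the build hg38. The aligner, the counting tool and its strand setting are not given in the sources used here. No molecular identifiers are named.

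The 10 genes and all lists were chosen with earlier results of these data known. Counts were filtered by filterByExpr, scaled by TMM and tested by edgeR 4.0.16 (quasi-likelihood, USAG-1 overexpression against control, no replicate block) in R 4.3.3, with Benjamini-Hochberg adjustment over all genes tested. The SE is the log2 fold change over the square root of F, and 95% intervals use the t quantile of the fit. Scripts were tested on simulated data. Alternatives were other scalings, filters and thresholds, DESeq2 1.42.0, limma-voom (limma 3.58.1), a replicate block and each library left out. A genomic span offset (a loess of log2 ratios on gene span, alone or with the block) was added after the data were seen.

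Named were the 10 genes, SOSTDC1, the 2 genes with the smallest p in each list and the genes most alike over libraries. Other named genes were chosen after their values were seen. Human sequences were not used here.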

Additional observations from a re-analysis of the deposited data

How the results depend on the processing

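Of the 10 stress regulators, 6 were called, and the number was 5 to 7 under other scalings, filters and tools, 4 at an adjusted p under 0.01 and 7 at one under 0.1. With each library left out in turn it ranged from 3 to 8. Over all genes the number called was 2884, 1104 at an adjusted p under 0.01, and from 1137 (without USAG-1 overexpression replicate 2) to 5091 (without control replicate 3) with a library left out, and the cause of these shifts was not tested. ATF3, TRIB3 and GDF15 kept their call in all 17 alternatives, and no called gene of the 10 changed sign. Signs turned only where no fit passed the threshold. With single libraries left out, DDIT4 ran from -0.0044 (without control replicate 1) to 0.10, CEBPB from -0.0028 (without USAG-1 overexpression replicate 3) to 0.12, HBA1 from -0.87 to 0.95, EIF2AK3 from -0.013 to 0.077, SESN1 from -0.16 to 0.051 and DDIT4L from -0.19 to 0.074. HBA1, a hemoglobin gene, was -0.29 with the settings of the report, 0.053 with the replicate block and 0.17 with the genomic span offset and block. The offset gave EIF2AK3 -0.052 (-0.051 with the block) and DDIT4L 0.039 (0.045 with the block). With the replicate block 6 of the 10 were called and 2381 genes in all. Same-numbered libraries did not deviate together (r = 0.07, -0.05 and 0.04), so the numbers were not taken as pairs. Under the genomic span offset alone the log2 fold change was 0.34 for ATF4, 0.17 for PPP1R15A, 0.14 for DDIT4 and 0.18 for CEBPB, the last 3 not past the threshold.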
